A study of Caenorhabditis elegans with 2 samples.

Results

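The genes described here are 10 genes of a fat-loss pathway of Caenorhabditis elegans in which neuronal serotonin and the neuropeptide FLP-7 lead to lipase expression in the intestine. They were taken from a fixed list that was chosen with earlier results of these data known. The genes are tph-1, tbh-1, mod-1, ser-5, ser-6, egl-4, flp-7, npr-22, nhr-76 and atgl-1, out of 19973 protein-coding genes in the nuclear genome. The data are ChIP-seq, the sequencing of DNA fragments that precipitate with a chosen protein, for eGFP-tagged NHR-76 in whole L4 larvae of pooled sex. Both samples are biological replicates of 1 group. The strain, OP203, has the genotype unc-119(ed3) III; wgIs203, where wgIs203 is the transgene for the tagged receptor. All samples share the transgene and the unc-119 allele, and neither an untagged strain nor a second stage was analysed here, so no contrast between groups exists and no test was made. The sources used here do not say what sequence around nhr-76 the transgene carries or which cells express it. Whole larvae were used, so neurons and intestine contribute to the same DNA and a region cannot be placed in a cell type.

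Serotonin in the worm is made from tryptophan by tryptophan hydroxylase in a small set of neurons, and together with octopamine it promotes the use of stored fat. The signal is relayed through amine receptors on other neurons to the release of FLP-7, a tachykinin-related peptide, which acts on its receptor NPR-22 in the intestine. The response there is expression of the triglyceride lipase gene atgl-1, and NHR-76, the immunoprecipitated nuclear hormone receptor, has been genetically linked to that step. Nuclear hormone receptors are transcription factors with a zinc-finger DNA-binding domain, and many bind short elements related to AGGTCA.

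The values are 4 lists of regions on the ce11 build with a signal value per region, which is the authors' own score on an unstated scale. The called list has 319 regions that the authors kept by irreproducible discovery rate (IDR), a method that keeps regions whose ranks recur between replicates. The pooled list, made from both replicates together, has 13052 regions, and the lists of replicates 1 and 2 have 26700 and 24791. These last 3 hold background regions as well as peaks, by their deposited description. Regions were ranked by signal value within their own list, with rank 1 the strongest, and a region was given to a gene when its summit lay between 5000 bp upstream of the gene and its 3′ end. Read depth is unknown, since the lists give no counts.

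Sequence under the called summits at these genes is shown first, because the strongest called region at these genes carries the element AGTGCA in both orientations. That region lies at nhr-76, where added copies in the transgene and binding by the receptor cannot be told apart. Each run is on the plus strand of ce11, 5′ to 3′, and capitals mark AGTGCA or its reverse complement, a nuclear receptor half-site of the type bound by DAF-12. The 4 elements searched on both strands were AGGTCA, the longer AAGGTCA, the variant AAGTCA and the element AGTGCA. Each match to the longer one also contains the shorter first one. The first 2 runs are 200 bases centred on the called summits upstream of nhr-76 (chrIV:626247-626446) and in an intron of nhr-76 (chrIV:629282-629481). The third is the 30 bases at the called summit upstream of atgl-1 (chrIII:6421256-6421285), kept short because it lies in the 3′ UTR of a neighbouring gene.
nhr-76 upstream: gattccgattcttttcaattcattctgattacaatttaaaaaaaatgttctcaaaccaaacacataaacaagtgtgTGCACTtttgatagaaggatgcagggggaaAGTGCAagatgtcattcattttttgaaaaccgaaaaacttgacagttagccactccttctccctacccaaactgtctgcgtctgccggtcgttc
nhr-76 intron: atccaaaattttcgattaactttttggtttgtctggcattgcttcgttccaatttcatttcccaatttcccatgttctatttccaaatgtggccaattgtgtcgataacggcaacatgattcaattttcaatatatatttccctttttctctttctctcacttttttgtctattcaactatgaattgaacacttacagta
atgl-1 upstream: tcccgagacgaagagcgtagcgggaggggg

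The window upstream of nhr-76 held AGTGCA in both orientations, on the minus strand at 626323 to 626328 and on the plus strand at 626353 to 626358, with 24 bases between the matches and the summit between them. Of all nuclear called windows of the same length, 3 of 288 (1.04%) held AGTGCA at 2 or more places, and 74 of 13022 nuclear pooled windows did (0.568%). At least 1 match was found in 6.94% of called and 6.63% of pooled windows. The window in the nhr-76 intron and the 200 bases at the atgl-1 summit held no match to any of the elements. AGGTCA occurred in 6.94% of called windows and AAGTCA in 10.8%, so a window without them was the usual case. A match describes the letters in a window and does not show a bound site. GC content was 39.0% in the upstream nhr-76 window, 32.5% in the intronic one and 50.5% at atgl-1, against a median of 42.0% over nuclear called windows.

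Called regions lay at 2 of the 10 genes, the receptor's own gene and the lipase gene. These were nhr-76, with 2 called summits, and atgl-1, with 1. Over all nuclear protein-coding genes the same window held a called summit for 2.44%, that is 487 genes. The pathway windows were longer than most, with a median of 9.02 kb against 7.03 kb over all genes. With a window from 1000 bp upstream the count was 1 of 10, against 1.27% of all genes. With windows from 2000 and 10000 bp upstream it was 2 of 10, against 1.61% and 3.82%. Without nhr-76, the gene that the transgene repeats, 1 of 9 had a called summit. Since the genes were chosen with earlier results known, the count is a description.

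The longer lists reached more of the genes, and the share over all genes is given beside each count. With 10 genes, a difference from those shares was not tested. The pooled list had a region for 4 of the 10 (nhr-76, atgl-1, egl-4 and tbh-1), against 55.0% of all genes. Replicate 1 had one for 8 of 10 and replicate 2 for 9 of 10, against 78.6% and 77.5%. A summit of replicate 1 with a replicate 2 summit within 200 bp was found for 4 of 10 (nhr-76, atgl-1, egl-4 and ser-6), against 38.5%. Regions with a deposited q-value of 0.05 or less lay at 3 of the 10 genes in the pooled list, in replicate 1 and in replicate 2, which in each list were nhr-76, atgl-1 and egl-4. The shares over all genes were 8.29%, 9.18% and 8.48%. By region, 4 of the 26 pooled regions in these windows reached that level, against 8.74% of the pooled list. It was 5 of 44 regions in replicate 1, against 4.78%, and 6 of 48 in replicate 2, against 4.85%. Of these regions nhr-76, the gene that the transgene repeats, gave 2 in the pooled list, 3 in replicate 1 and 4 in replicate 2. atgl-1 and egl-4 gave 1 each in each list. The other 7 genes had no region at that level in any of the 3 lists.

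**Figure D1:**
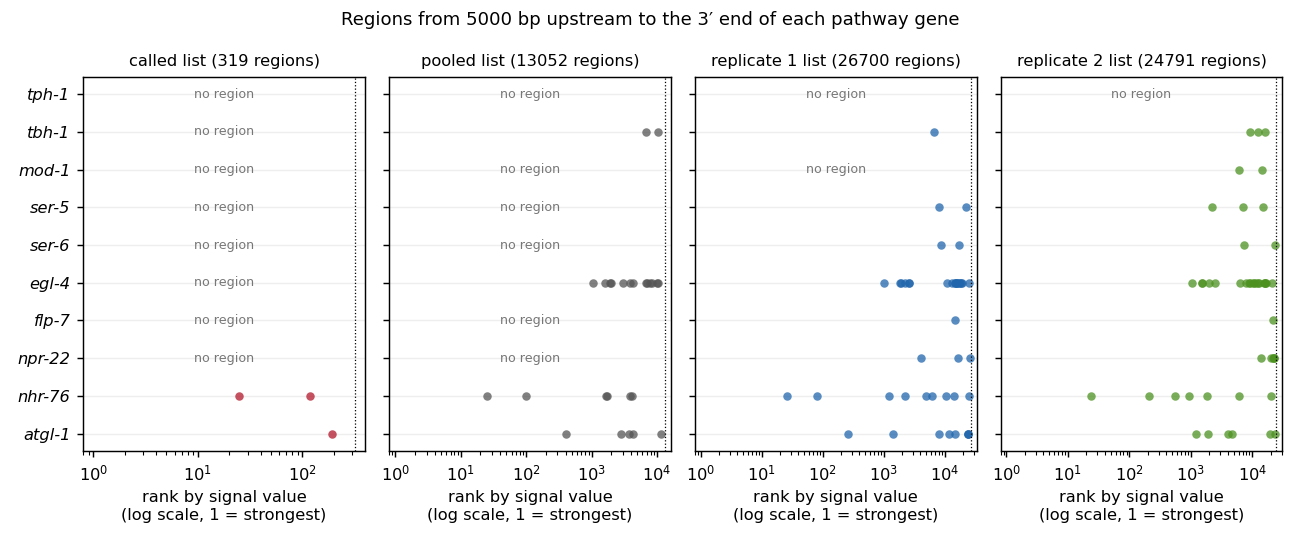
Each point is a region in the window of 1 gene, placed by its rank by signal value within its list (log scale, 1 is the strongest), with 1 panel per list and the dotted line at the list's length. nhr-76 and atgl-1 are the 2 genes with points in the called list, and tph-1 has no point in any list.

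nhr-76 (WBGene00015497, chromosome IV, 627537 to 633963, plus strand) encodes the tagged receptor. Its strongest called region, at 626162 to 626531 with a summit 1190 bp upstream of the gene start, had a signal value of 240 and rank 25 of 319. Replicate 1 listed it at rank 26 with a signal value of 139, and replicate 2 at rank 24 with 110. Its place was almost the same in both, and since mitochondrial regions filled most of the ranks above it, it had rank 3 among nuclear regions of replicate 1 and rank 1 among those of replicate 2. It lay in intergenic sequence, and no other protein-coding gene started closer to it.

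The other called region of nhr-76, at 629197 to 629566, lay in an intron 1845 bp downstream of the gene start, with a signal value of 89.5 and rank 119. It was at rank 80 in replicate 1 (signal value 61.6) and at rank 205 in replicate 2 (30.6). Both replicates thus placed it within their 319 strongest regions, with ranks further apart than for the upstream one. The gene's window as a whole was well filled, with 6 pooled regions, 9 of replicate 1 and 7 of replicate 2, those at the called summits included. Per 10 kb of window this was 5.25 regions in the pooled list, and 2.41% of genes had a higher density. Other regions that recurred lay 51 bp upstream of the gene start in replicate 1 (rank 6160) and 131 bp upstream in replicate 2 (rank 1863), and 3654 bp upstream in replicate 1 (rank 1223) and 3768 bp upstream in replicate 2 (rank 5980).

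**Figure D2:**
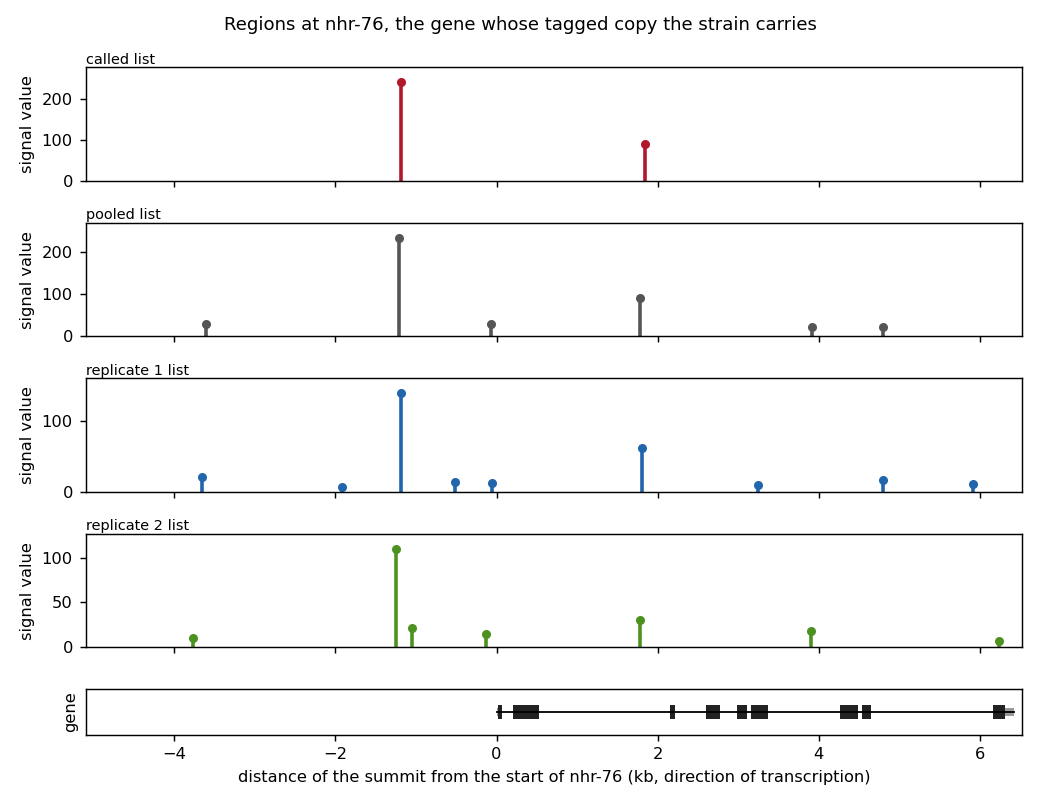
Signal value of each region (vertical line with a point, separate scale per list) against the distance of its summit from the start of nhr-76 in kb, with exons as boxes (coding parts taller and darker). The 2 highest summits of each list lie within 100 bp of the 2 called summits.

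The filled stretch extended past the gene itself. In 10 kb bins from the gene start, the pooled list had 5 regions in the bin just upstream and 8 in the bin from 0 to 10 kb, and then 3, 5 and 3 out to 40 kb. The 5 bins from 10 kb upstream to 40 kb downstream averaged 4.80 pooled regions, 6.60 of replicate 1 and 5.80 of replicate 2. The other 15 bins within 100 kb averaged 0.533, 1.20 and 2.07, and all bins of chromosome IV 1.39, 2.79 and 2.63. The stretch was thus dense in both replicates while its surroundings were below the chromosome's mean, with bounds chosen after the counts were seen. It also held the called region between rpl-15, a ribosomal protein gene, and K11H12.8, at rank 27 of the called list. Added copies of this sequence in the transgene and binding by the receptor cannot be told apart here, so the regions at nhr-76 are given apart from those at the other genes.

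**Figure D3:**
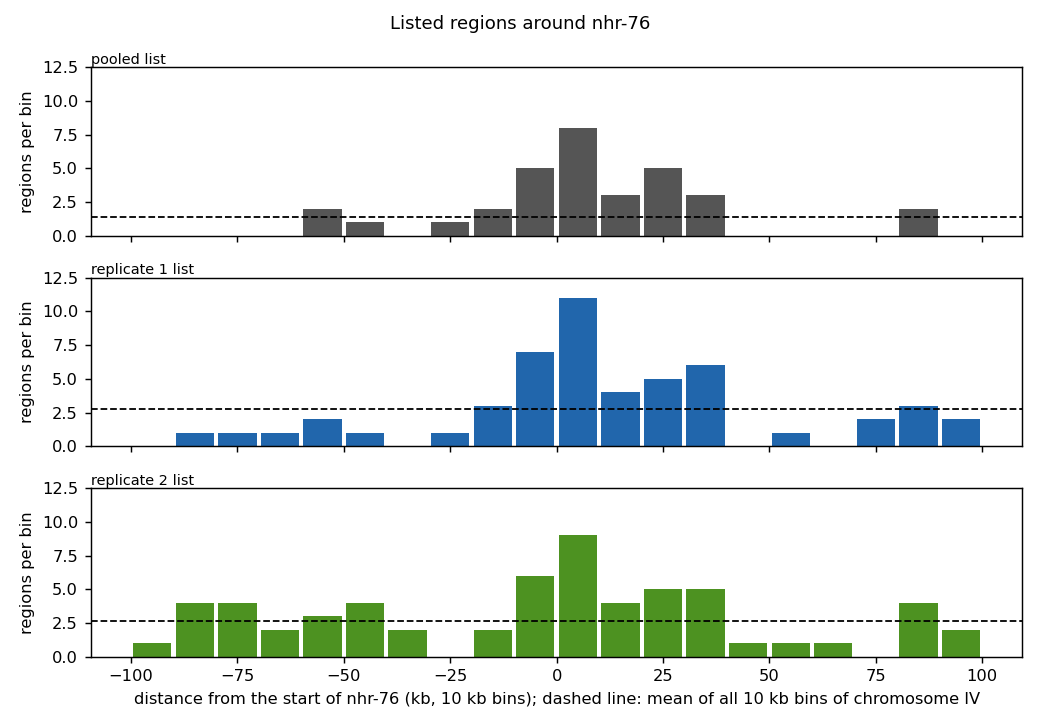
Number of listed regions per 10 kb bin (bars) within 100 kb of the start of nhr-76, for the pooled, replicate 1 and replicate 2 lists, with the mean of all 10 kb bins of chromosome IV as a dashed line. The 5 bins from -10 to 40 kb lie above the line in each of the 3 lists, with 8, 11 and 9 regions in the bin that starts at the gene.

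atgl-1 (WBGene00015484, chromosome III, 6415772 to 6419459, minus strand) encodes the adipose triglyceride lipase that the pathway acts on. Its called region lay at 6421086 to 6421455, with a signal value of 71.2 and rank 193 of 319, and its summit 1812 bp upstream of the gene start. That summit was inside the neighbouring gene C05D11.8, which is upstream on the same strand, in the annotated 3′ UTR at its end. Of all protein-coding genes, atgl-1 nevertheless had its 5′ end nearest to the summit. The same interval was in the pooled list, with a lower signal value, 50.4, and at rank 400, so the called list was not scored as the pooled list was.

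The replicates differed at this region. Replicate 1 had it at rank 259, with a signal value of 35.9 and a -log10 q-value of 2.47, and the summit at the same base as the called one. Replicate 2 had a summit 1 bp away at rank 1938, with a signal value of 14.6 and a -log10 q-value of 0.811, so its q-value was above 0.05. Replicate 2 instead ranked another region higher (rank 1194, signal value 16.7, -log10 q-value 1.30). Its summit was 2090 bp upstream of the gene start, also in the 3′ UTR of C05D11.8. This region, at 6421351 to 6421746, overlapped both the called region and the weaker replicate 2 region. Had the 319 strongest regions of replicate 2 alone stood for the called list, atgl-1 would have had none, and those of replicate 1 alone would have included it. The called summit thus ranked higher in replicate 1 than in replicate 2. The called list was not made by taking the 319 strongest regions, so what the call at atgl-1 rested on was not tested.

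Closer to the atgl-1 start the regions were weak. The pooled list had summits 46 bp upstream (rank 11390) and 774 bp upstream (rank 3802) and 491 bp inside the gene in an intron (rank 2820). The intronic one recurred, at rank 8100 in replicate 1 and 4680 in replicate 2 with the summits 6 bp apart. A region 800 bp upstream at rank 1419 of replicate 1 had no replicate 2 summit within 200 bp. The window as a whole was well filled, with 5 pooled regions, 8 of replicate 1 and 6 of replicate 2, and 1.70% of genes had more pooled regions per 10 kb. No region in it other than those at 1812 and 2090 bp upstream had a q-value of 0.05 or less in the pooled or replicate lists.

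**Figure D4:**
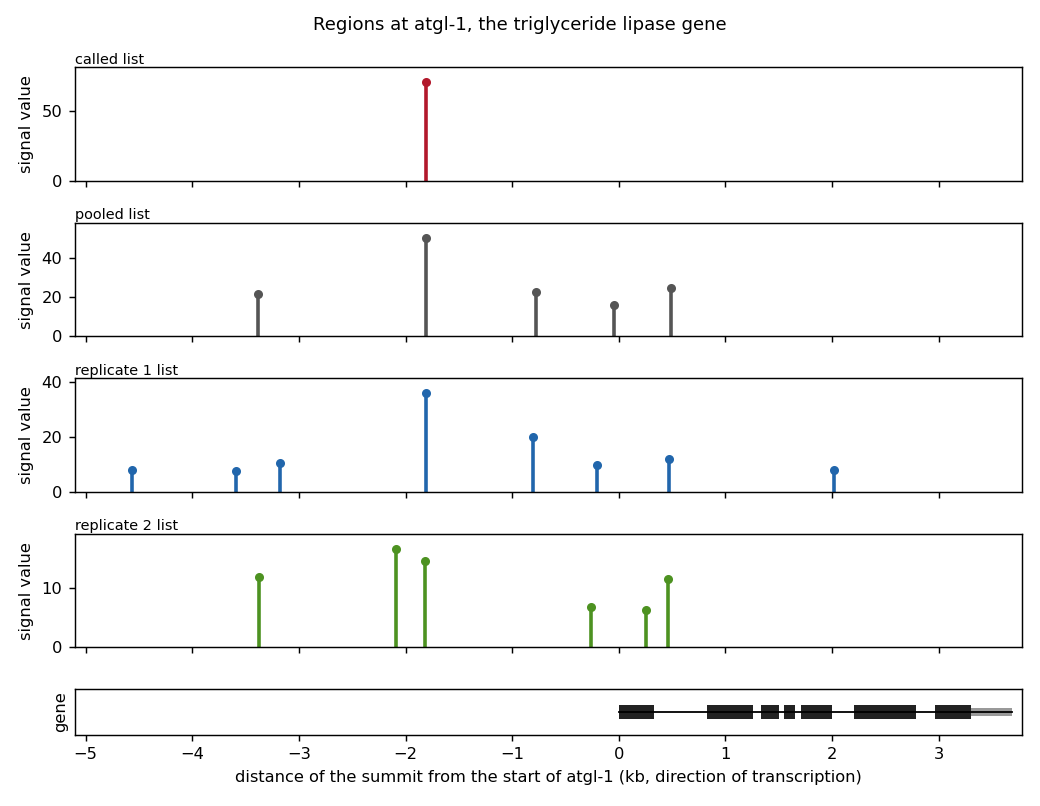
Signal value of each region (separate scale per list) against the distance of its summit from the start of atgl-1 in kb, along the direction of transcription, with exons as boxes. The summit at -1.81 kb is the highest in the called, pooled and replicate 1 lists, while in replicate 2 the summit of an overlapping region at -2.09 kb is higher.

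egl-4 (WBGene00001173, chromosome IV, 1848071 to 1880596, plus strand) encodes a cGMP-dependent protein kinase that acts in sensory neurons and was not called. Its window of 37.5 kb is longer than that of all but 0.210% of genes, and it held 13 pooled regions, 18 of replicate 1 and 19 of replicate 2. Most were intronic, 11 in the pooled list, 15 in replicate 1 and 17 in replicate 2, some of them in the neighbouring gene ccm-2. Density was 3.46 pooled regions per 10 kb, and 8.58% of genes had more. The number is therefore to be read with the length of the window.

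The strongest egl-4 regions of the replicates lay at different places. Replicate 1 put an intronic region 28948 bp downstream of the gene start highest (rank 994, -log10 q-value 1.61). No replicate 2 summit lay within 200 bp of it, though an overlapping replicate 2 region had its summit 28720 bp downstream, at rank 10170. Replicate 2 put an intronic region 11552 bp downstream highest (rank 1034, -log10 q-value 1.46). That second place recurred in replicate 1, 62 bp away at rank 2248, and led the pooled regions of the gene at rank 1066 (-log10 q-value 1.39). In all, 7 places of egl-4 recurred in both replicates, and 11.2% of genes had more such places per 10 kb of window. Among the 7 was 1 with ranks of 2595 in replicate 1 and 1972 in replicate 2. At another, where the sequence around the summit was masked as repeat over its whole length, replicate 2 had rank 1503 and replicate 1 had rank 19408.

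**Figure D5:**
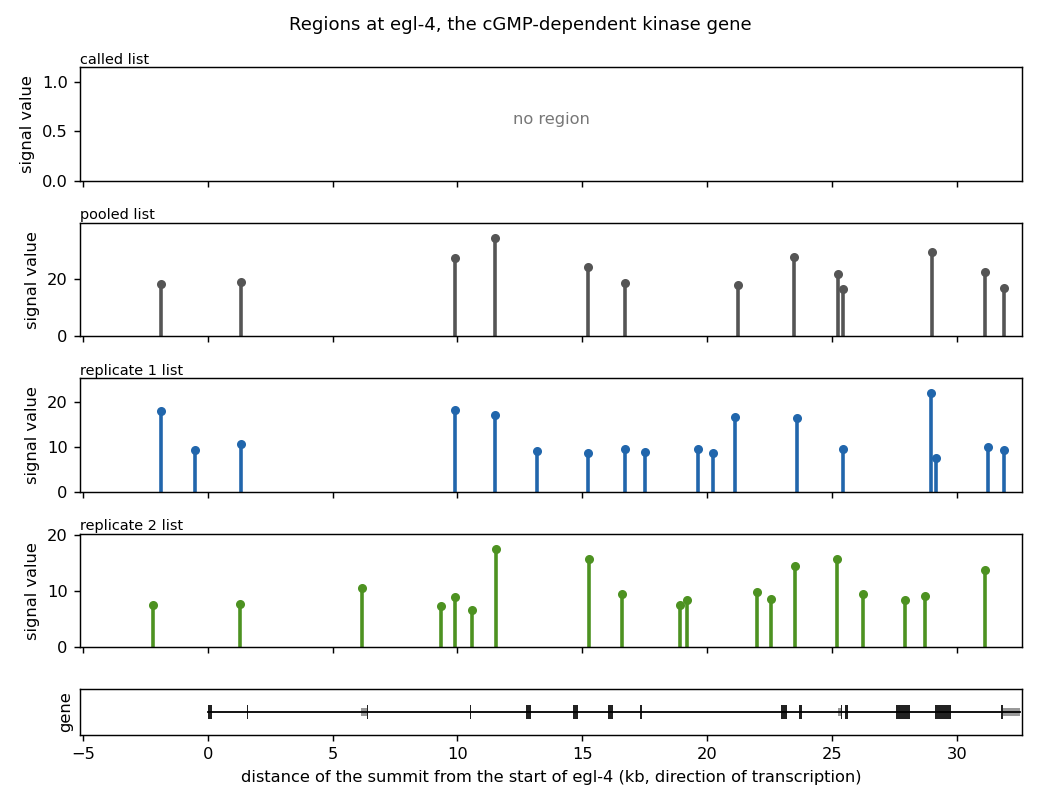
Signal value of each region (separate scale per list) against the distance of its summit from the start of egl-4 in kb, with exons as boxes. Regions are spread along the gene, none is called, and the highest summit is at 28.9 kb in replicate 1 and at 11.6 kb in replicate 2.

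The genes of amine synthesis had no called region. tph-1 (WBGene00006600, chromosome II, 7549335 to 7551983), which encodes the tryptophan hydroxylase that starts serotonin synthesis, had no region in any of the 4 lists across a window of 7.65 kb. Of all genes, 78.6% had a region in replicate 1 and 77.5% in replicate 2. The nearest called summit was 20012 bp upstream. tbh-1 (WBGene00006541, chromosome X, 15500256 to 15504895, minus strand), which encodes the tyramine beta-hydroxylase of octopamine synthesis, had 2 pooled regions, at ranks 6875 and 10551. The first of these lay 3419 bp upstream of tbh-1 and 434 bp upstream of zipt-7.2, a zinc transporter gene, and it recurred within 4 bp in replicate 1 (rank 6579) but not in replicate 2. The weaker one was 175 bp upstream of tbh-1, in an intron of the overlapping gene H13N06.7, with a replicate 2 summit 139 bp upstream at rank 12359 and none in replicate 1. No place at tbh-1 had a summit in both replicates within 200 bp.

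The amine receptor genes had no region in the called or pooled list. mod-1 (WBGene00003386, chromosome V, 8909704 to 8914040, minus strand), a serotonin-gated chloride channel gene, had 2 regions in replicate 2, the stronger 4371 bp upstream at rank 6104, and none in replicate 1. ser-5 (WBGene00008890, chromosome I, 8384931 to 8387039, plus strand), a serotonin receptor gene that lies within T19A6.1 on the opposite strand, had 2 regions in replicate 1 and 3 in replicate 2, with the best ranks 8198 and 2251. These did not recur, since the replicate 1 summits lay 4554 and 147 bp upstream and those of replicate 2 at 3278 and 3058 bp upstream and 1899 bp downstream of the start. ser-6 (WBGene00021897, chromosome IV, 2960098 to 2964401, plus strand), an octopamine receptor gene, was the one receptor gene with a shared place, 437 bp upstream in replicate 1 and 300 bp upstream in replicate 2. The ranks were 16845 of 26700 in replicate 1 and 23387 of 24791 in replicate 2, with -log10 q-values of 0.0554 and 0.0233.

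The peptide and its receptor were likewise without a called or pooled region. flp-7 (WBGene00001450, chromosome X, 5885865 to 5886833, plus strand) had 1 region in each replicate, 473 bp upstream at rank 14926 in replicate 1 and 439 bp downstream, in coding sequence, at rank 21475 in replicate 2. npr-22 (WBGene00022004, chromosome IV, 8559432 to 8563161, plus strand) had 3 regions in replicate 1, all upstream, and 5 in replicate 2, of which 3 were inside the gene. The best of them was 2519 bp upstream in replicate 1, at rank 4117, and the best of replicate 2 was at rank 13965. None of the places at flp-7 or npr-22 recurred within 200 bp. Called summits were far off, 44577 bp upstream of flp-7 and 24279 bp upstream of npr-22.

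The sequence composition of the pathway regions is given beside that of their lists. The 200 bp windows of the 26 pooled regions had a median GC content of 33.0%, against 32.5% over all nuclear pooled regions, and a median of 44.3% of their bases masked as repeats, against 41.0%. In replicate 1 the medians for 44 regions were 33.3% GC and 41.0% masked, against 32.5% and 40.5%. In replicate 2, for 48 regions, they were 36.0% and 31.0%, against 32.5% and 40.5%. Pooled summits lay mostly in introns (17 of 26), of which egl-4 gave 11.

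Of 25 further genes listed for the same pathway, 2 had a called summit, against 2.44% of all genes. This count too is a description, since the lists were chosen with earlier results of these data known. The 2 genes were hlh-11 and cbp-1, and unlike atgl-1 they had the summit close to their own start. cbp-1, which encodes a CBP/p300 histone acetyltransferase and coactivator, had its called region at 9765410 to 9765779 on chromosome III, 914 bp upstream, with a signal value of 108 and rank 78. It was at rank 162 in replicate 1 and rank 67 in replicate 2. hlh-11 encodes a basic helix-loop-helix factor that represses atgl-1 in the intestine. Its called region, at 9619133 to 9619502 on chromosome III, had its summit 393 bp upstream, a signal value of 60.5 and rank 289, near the end of the called list. It was at rank 566 in replicate 1 and rank 547 in replicate 2, so the replicates placed it alike, though neither among its 319 strongest. The 200 bases at these 2 summits are shown, since they are the called sequences nearest to a start in the pathway (chrIII:9765495-9765694 and chrIII:9619218-9619417).
cbp-1 upstream: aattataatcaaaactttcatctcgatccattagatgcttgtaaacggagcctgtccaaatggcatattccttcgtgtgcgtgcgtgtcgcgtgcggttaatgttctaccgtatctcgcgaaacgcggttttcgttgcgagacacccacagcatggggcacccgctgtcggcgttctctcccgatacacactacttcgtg
hlh-11 upstream: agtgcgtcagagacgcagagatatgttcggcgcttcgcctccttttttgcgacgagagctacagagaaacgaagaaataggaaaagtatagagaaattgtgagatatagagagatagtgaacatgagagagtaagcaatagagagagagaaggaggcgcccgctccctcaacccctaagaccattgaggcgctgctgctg

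Neither window held any of the nuclear receptor elements. The hlh-11 window held GAGAGA at 5 places, overlapping ones counted and both strands searched, where 43.4% of called and 15.5% of pooled nuclear windows held it at least once. The cbp-1 window and the nhr-76 intronic window held it at 1 place each, and the windows upstream of nhr-76 and atgl-1 at none. This repeat was searched because it was already known to be frequent at called summits of these data.

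Among the genes without a called summit, mxl-3 and cat-1 are described because of their ranks. Others of them also had a region at a q-value of 0.05 or less. Of the 25 genes, called ones included, 5 had such a region in the pooled list, 4 in replicate 1 and 6 in replicate 2. Shares over all genes at that level were 8.29%, 9.18% and 8.48%. mxl-3 encodes a Max-like factor that represses lysosomal lipase genes, and it had 3 regions at a q-value of 0.05 or less in the pooled list, 3 in replicate 1 and 2 in replicate 2. The strongest of replicate 1 lay 2899 bp upstream (rank 221), with a replicate 2 summit 2783 bp upstream (rank 2388). The strongest of replicate 2 lay 4467 bp upstream (rank 402), with a replicate 1 summit 4407 bp upstream (rank 1111). In the mxl-3 window, 5 replicate 1 summits had a replicate 2 summit within 200 bp. Of all genes, 38.5% had at least 1 such summit in their window. The nearest called summit was 5743 bp upstream, just outside the window. cat-1, the vesicular monoamine transporter gene, had a region at rank 183 of replicate 2, 3623 bp upstream and nearer to the start of cyp-43A1. Replicate 1 had it 3663 bp upstream at rank 8144, and the pooled list at rank 687, so the replicates differed there. The pooled list had a region for 18 of the 25 genes, against 55.0% of all genes. Replicate 1 and replicate 2 each had one for 24 of 25, against 78.6% and 77.5%.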

How the data were processed

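The deposited lists follow the narrowPeak layout, per the text records deposited with the samples. Each replicate list was made by the authors from that replicate's alignment and a further file, the pooled list from both alignments with that file, and the called list from these by IDR. The sources used here name no aligner, peak caller or threshold, and do not say whether the further file is a control. A possible control named in the labels was not used separately here, while the further file entered the making of the lists. The signal value is the authors' deposited score and only ranked regions within a list. The -log10 q-value was deposited by the authors and was 2.87 for every called region, so it was not used there. The summit offset was deposited too. Depth is unknown. Lists on ce10 were not used.

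Genes came from Ensembl release 115 on WBcel235, the ce11 sequence, and sequence from the RefSeq copy of it. The 12 mitochondrial genes were left out. Regions were counted per gene with Python 3.11.15, pandas 2.3.3 and numpy 2.4.6, and the counting was tested on simulated data. Ties took the lowest rank. The members and lists were chosen with earlier results of these data known. Named genes were the members, further pathway genes with a called summit and the genes nearest to a described region. cat-1 and mxl-3 were named after their values were seen. Alternatives changed the window, the region rule, the list length, the shared distance and the replicates. Leaving out nhr-76 was added after seeing the data.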

Additional observations from a re-analysis of the deposited data

How the results depend on the processing

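The count of pathway genes with a called summit, 2 of 10, was the value that depended most on the settings tried. It was 1 with a window from 1000 bp upstream, which lost the atgl-1 summit, 1 among the 159 strongest called regions and 1 with nhr-76 left out, which was added after seeing the data. It ranged from 1 to 2 when either replicate was left out, with the 319 strongest regions of the other in place of the called list. Without replicate 1 the atgl-1 region was lost, and without replicate 2 it was kept. For the 25 further genes the count was 2, and 1 among the 159 strongest called regions. It was 2 without either replicate, though hlh-11 was in neither of those sets. The pooled count was 4, and 7 with a window from 10000 bp upstream. The other 43 values of these counts were within 1.5 times their main value. For the pooled list with the 10000 bp window, no share over all genes was computed. None was computed for the 159 strongest called regions or the 319 strongest regions of 1 replicate either. Of 24 alternative values for single genes, 17 stayed and 7 moved, the last all lower and at nhr-76, atgl-1 or hlh-11. No paired analysis was possible because there is 1 group, and no test gave any of the results. Without read counts, weak binding and its absence cannot be told apart at genes with no listed region.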
